A study of Mus musculus with 6 samples.

Results

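The acyl-CoA thioesterase (Acot) genes were followed in RNA-seq of whole mouse liver, as 10 listed members: Acot1, Acot2, Acot3, Acot4, Acot5, Acot6, Acot8, Acot9, Acot12 and Acot13. Members were taken by gene symbol, and 9 of the 10 had a row under their symbol among the 24927 rows of the deposited tables. Acot5 was not analysed here. The family was chosen by measured values, namely the differences between the groups described here, so these differences are a description and carry no test. The study held 6 libraries of C57BL/6 mice, an inbred strain. There were 3 labelled wild type and 3 labelled Cdkl3-/-, the targeted gene encoding a kinase related to the cyclin-dependent kinases. Both groups were given as male, aged 10 months, on chow with free access to food and water. The series text places the knockout in the liver, and for the Cre driver or deletion strategy nothing is given in the sources used here. Labels name separate libraries but do not say that no mouse was used for more than 1 of them, so spreads between libraries may be partly technical.

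Acyl-CoA thioesterases hydrolyse acyl-CoA esters to the free acid and coenzyme A, and so work against the acyl-CoA synthetases. One structural class has an alpha/beta hydrolase fold, and its mouse genes (Acot1 to Acot6) lie side by side and encode cytosolic, mitochondrial and peroxisomal enzymes. The other class has a hotdog fold and includes Acot8, Acot9, Acot12 and Acot13. In liver several members of the first class are known targets of PPAR alpha, the nuclear receptor that fasting fatty acids and fibrate drugs activate.

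Values are FPKM, that is fragments counted on a gene, corrected for its length and for the depth of the library. The libraries held about 20460000 to 48610000 reads counted on genes, and 1 read on a 1 kb transcript was worth 0.0206 to 0.0489 FPKM. Cdkl3 itself was listed at 0.166, 0.0883 and 0.119 FPKM under the wild type label and at 0.0761, 0.146 and 0.195 FPKM under the knockout label, on 10 to 32 reads, so its level did not separate the labels. All libraries are labelled male, yet Xist, the RNA of the inactive X chromosome of females, was at 192 to 292 FPKM under the wild type label and at most 0.0271 FPKM under the knockout label. Ddx3y of the Y chromosome went the other way, at most 0.207 FPKM against 38.2 to 50.8 FPKM. The labelled genotype and what these sex-linked transcripts mark cannot be told apart in any comparison below. Mitochondrial transcripts took 70.5% to 73.9% of all FPKM in the wild type libraries and 63.2% to 70.1% in the knockout libraries. Most hepatocyte markers were abundant, summing to 3125 to 4537 FPKM per library, while Apoa1 and Ass1 were near 0. In knockout replicate 1 the kidney transcript Kap reached 5264 FPKM, against 4.18 and 5.72 FPKM in knockout replicates 2 and 3. In wild type it was at most 0.0785 FPKM. Kidney markers as a list (9 of 14 with a row) summed to 5283 FPKM there and elsewhere to 0.432 to 5.92 FPKM. Kap held nearly all of the sum in knockout replicate 1, where the next marker, Slc12a1, was at 9.77 FPKM. Slc22a6 (3.13 FPKM), Slc34a1 (2.34 FPKM) and Lrp2 (2.02 FPKM) were also highest there. So were Slc12a3, Cubn and Umod, each under 1 FPKM, while Napsa was at 0 there.

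The peroxisomal Acot3 and Acot4 and the cytosolic Acot12 supplied nearly all of the family's signal, and all 3 were lower in every knockout library. Acot3 was 18.4-fold lower by group means, Acot4 4.49-fold and Acot12 1.90-fold. Against them stood the mitochondrial Acot9 and Acot13, both low in wild type and higher in every knockout library. Differences and their standard errors are on the log2(FPKM + 1) scale, from a limma fit over the 5651 genes that reached 1 FPKM in 3 or more libraries. A gene is called when the Benjamini-Hochberg adjusted p is under 0.05. Of all genes tested, 54.2% were called, 33.7% higher and 20.5% lower in knockout, and for 63.9% the 2 groups did not overlap. Of the members, 5 passed the filter, and 4 of them were called lower (Acot1, Acot3, Acot4, Acot12) and 1 higher (Acot9). The choice of members used this contrast, so nothing is read from that count. The median difference over all genes tested was 0.12.

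**Figure D1:**
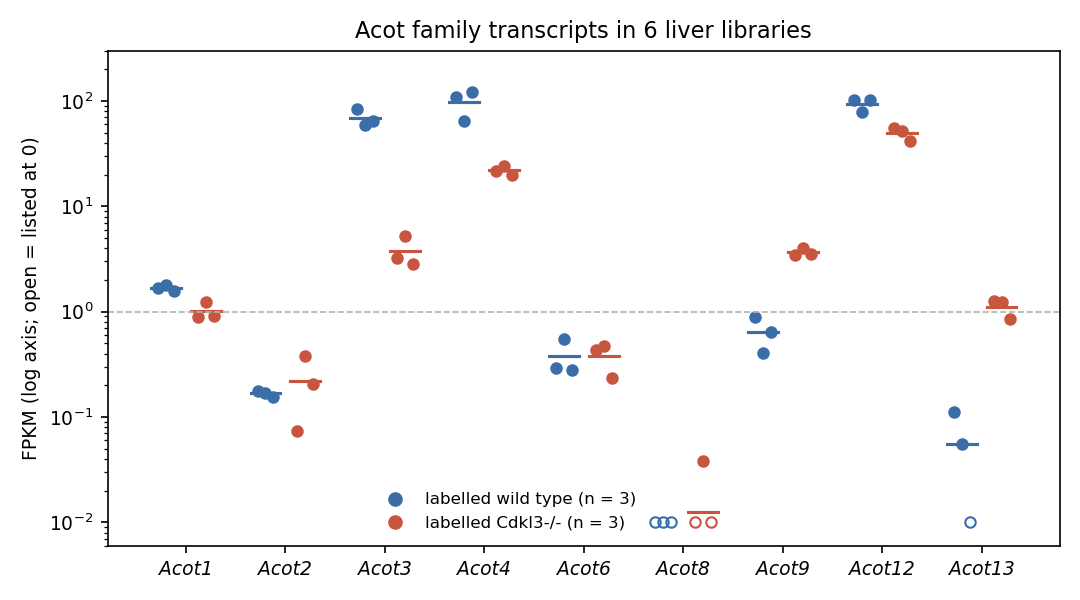
FPKM (log axis) of the Acot members in each library, with wild type and knockout libraries as separate points. Open points near the axis floor are values listed at 0. Acot3, Acot4 and Acot12 lie at 59.2 FPKM or more in wild type, and Acot3 shows the widest gap between the groups.

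The promoters of 4 members are printed because they belong to the 3 abundant genes that were lower and to the one tested member that was higher. They are RefSeq sequences on GRCm38.p6, 250 bases before to 50 after the start site on the strand of the gene, and such a sequence was at hand for 8 of the 10 members. Capitals mark TGACCT, the reverse complement of AGGTCA, the core motif bound by PPAR alpha and other nuclear receptors. Acot3 at chr12:84051894-84052193 (+ strand), Acot4 at chr12:84038129-84038428 (+ strand), Acot12 at chr13:91741271-91741570 (+ strand) and Acot9 at chrX:155262193-155262492 (+ strand) read as follows.
Acot3: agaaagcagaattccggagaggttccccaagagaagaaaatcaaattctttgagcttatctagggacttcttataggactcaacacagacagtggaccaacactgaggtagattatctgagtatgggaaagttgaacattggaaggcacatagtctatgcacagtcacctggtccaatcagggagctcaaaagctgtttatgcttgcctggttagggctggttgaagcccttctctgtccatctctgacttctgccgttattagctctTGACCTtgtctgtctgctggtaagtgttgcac
Acot4: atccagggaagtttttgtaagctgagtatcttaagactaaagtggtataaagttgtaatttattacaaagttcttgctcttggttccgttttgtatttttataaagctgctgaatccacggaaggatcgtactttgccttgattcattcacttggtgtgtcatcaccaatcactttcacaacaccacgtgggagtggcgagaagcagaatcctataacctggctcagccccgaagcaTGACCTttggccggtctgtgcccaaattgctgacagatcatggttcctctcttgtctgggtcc
Acot12: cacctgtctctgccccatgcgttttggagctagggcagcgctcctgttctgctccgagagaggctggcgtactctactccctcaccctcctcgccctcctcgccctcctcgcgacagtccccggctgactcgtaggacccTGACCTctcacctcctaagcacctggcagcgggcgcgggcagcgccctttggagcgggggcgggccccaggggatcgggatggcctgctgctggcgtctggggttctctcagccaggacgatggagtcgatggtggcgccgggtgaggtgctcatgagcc
Acot9: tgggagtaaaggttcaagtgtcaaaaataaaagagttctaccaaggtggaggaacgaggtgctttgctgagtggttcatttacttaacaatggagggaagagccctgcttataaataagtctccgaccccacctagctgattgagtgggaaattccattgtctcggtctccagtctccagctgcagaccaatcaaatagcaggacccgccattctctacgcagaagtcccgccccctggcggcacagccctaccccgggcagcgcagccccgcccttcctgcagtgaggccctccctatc
Counted from the start site, the match lay at +19 to +24 in Acot3, at -13 to -8 in Acot4 and at -110 to -105 in Acot12. Acot5 held matches from -224 to -219 and from -1 to +5. No AGGTCA on either strand stood in the windows of Acot1, Acot2, Acot8 and Acot9. AGGTCA on either strand stood in 16.0% of 27025 mouse promoters of that length. The full direct repeat AGGTCANAGGTCA, with 1 spacer base, stood in 0.0444% of promoters and in none of these 8, and the STAT5 motif TTCNNNGAA in 8.47% and also in none of them. The motifs were picked with the expression values known, and a match is only a description of these letters.

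Acot3 encodes a peroxisomal thioesterase of medium- and long-chain acyl-CoAs. It measured 83.6, 59.2 and 64.4 FPKM in wild type replicates 1 to 3 and 3.25, 5.18 and 2.81 FPKM in knockout replicates 1 to 3. The lowest wild type library thus stood far above the highest knockout library, and the values rest on 4532 to 10359 reads in wild type and 258 to 705 in knockout. Group levels were 69.1 ± 12.9 FPKM (SD, n = 3) and 3.75 ± 1.26 FPKM (SD, n = 3). The log2 difference was -3.90 (SE 0.23, 95% interval -4.43 to -3.37), and 5 of the genes tested had a lower one. Acot3 ranked 233 to 322 among the usable genes in wild type libraries and 2658 to 3735 in knockout libraries.

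Acot4 encodes the peroxisomal enzyme that releases succinate and other short acids from coenzyme A. It was the most abundant member in wild type by mean, at 109.9, 64.9 and 121 FPKM, and measured 21.6, 24.3 and 19.8 FPKM in the knockout libraries. Wild type replicate 2 was the lowest of its group for both Acot3 and Acot4 and still lay above every knockout library. Group levels were 98.5 ± 29.6 FPKM (SD, n = 3) and 21.9 ± 2.25 FPKM (SD, n = 3). The log2 difference was -2.07 (SE 0.25, 95% interval -2.64 to -1.50), with 38 of the genes tested lower. The spread was wider in wild type, with a coefficient of variation of 30.0% against 10.3%, whereas for Acot3 it was 18.6% against 33.7%.

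Acot12 encodes a cytosolic acetyl-CoA hydrolase. It measured 103, 78.3 and 101 FPKM in wild type and 55.9, 51.5 and 41.5 FPKM in knockout. The groups again did not overlap, but the gap between the lowest wild type and the highest knockout library was narrow beside those of Acot3 and Acot4. Group levels were 94.2 ± 13.8 FPKM (SD, n = 3) and 49.6 ± 7.40 FPKM (SD, n = 3), a log2 difference of -0.91 (SE 0.19, 95% interval -1.35 to -0.47). Of the genes tested, 531 had a lower difference.

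Acot1 encodes the cytosolic long-chain acyl-CoA thioesterase, the member best known for its induction by fibrates. It was low, at 1.66, 1.78 and 1.57 FPKM in wild type and 0.884, 1.24 and 0.907 FPKM in knockout. Every knockout library lay below every wild type library, on 85 to 339 reads, and the ratio of group means was 1.66. The log2 difference was -0.41 (SE 0.14, 95% interval -0.73 to -0.09), and the call was lost when any 1 of the 6 libraries was left out, with differences from -0.49 to -0.37.

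Acot2, the mitochondrial paralogue of Acot1, was at 0.177, 0.169 and 0.156 FPKM in wild type and 0.0743, 0.380 and 0.204 FPKM in knockout. The groups overlapped, and with 4 to 33 reads per library the read rate ratio of knockout to wild type was 1.45 (95% exact interval 0.936 to 2.27, counting error only). Acot6, a peroxisomal enzyme of branched acyl-CoAs, was at 0.294, 0.552 and 0.282 FPKM against 0.432, 0.469 and 0.233 FPKM. Its groups overlapped as well, and its read rate ratio was 0.949 (95% exact interval 0.792 to 1.13). Acot8, a peroxisomal hotdog thioesterase with a broad range of substrates, was listed at 0.0380 FPKM in knockout replicate 2, which corresponds to 3 reads, and at 0 in the other 5 libraries. Gapdh, a glycolytic enzyme that every cell uses, was itself listed at 0, 0 and 0.0237 FPKM in wild type and at 0.217 to 0.237 FPKM in knockout, so a listed 0 is not read here as a limit on expression.

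Acot9 encodes a mitochondrial thioesterase of short- and long-chain acyl-CoAs. It measured 0.891, 0.407 and 0.645 FPKM in wild type and 3.43, 3.98 and 3.56 FPKM in knockout. No wild type library reached 1 FPKM, so the gene passed the filter through the knockout libraries alone and had to differ. Group levels were 0.648 ± 0.242 FPKM (SD, n = 3) and 3.65 ± 0.291 FPKM (SD, n = 3), a ratio of 5.64 and a log2 difference of 1.51 (SE 0.16, 95% interval 1.14 to 1.88). For that reason the interval is a description and no test. Acot9 lies on the X chromosome, the only member that does. Acot13, a small thioesterase associated with mitochondria, was at 0.112, 0.0553 and 0 FPKM in wild type and 1.26, 1.22 and 0.855 FPKM in knockout. Its groups did not overlap, on 0 to 3 reads against 17 to 36, with a read rate ratio of 17.6 (95% exact interval 7.22 to 55.7). Acot13 did not pass the filter. In the fit without a filter its log2 difference was 1.00 (SE 0.11).

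**Figure D2:**
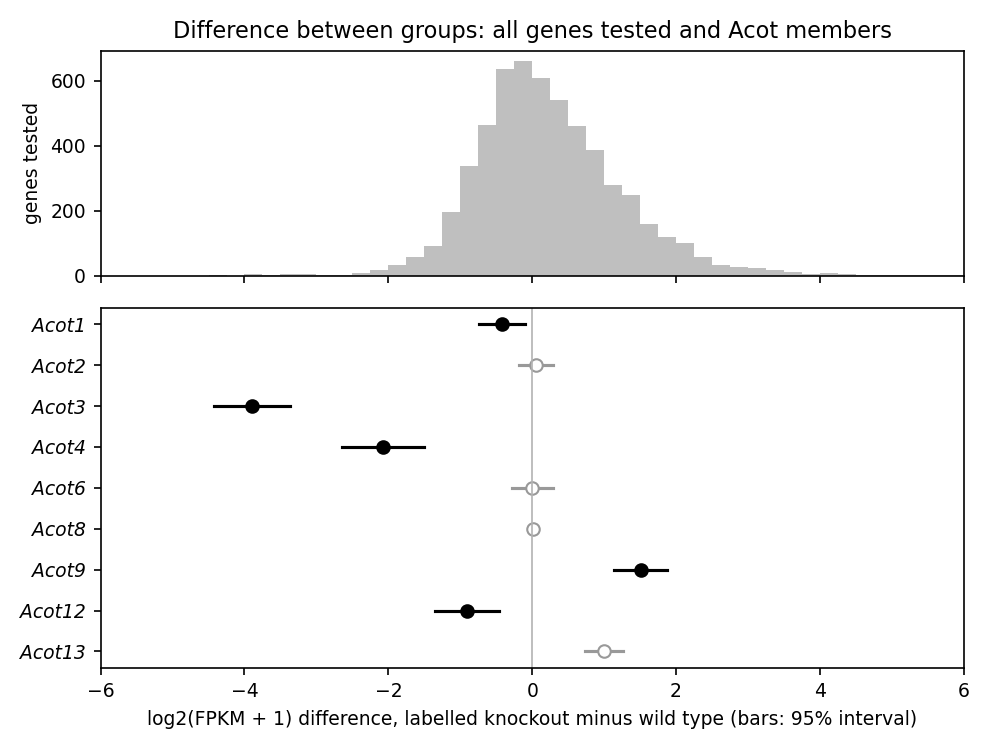
Log2(FPKM + 1) difference, knockout minus wild type, for the members with bars of 95% intervals, beside the histogram of all genes tested, which is drawn within the limits of its axis. Acot3 at -3.90 and Acot4 at -2.07 lie in the lower tail, Acot12 at -0.91 nearer the middle and Acot9 at 1.51 on the upper side. Acot9 passed the filter through the knockout libraries alone and had to differ.

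The family's summed level was lower in knockout and its makeup differed. Members summed to 299.7, 205 and 289 FPKM in wild type and to 86.8, 88.3 and 69.8 FPKM in knockout, a ratio of means of 3.24. Acot3, Acot4 and Acot12 held 98.6% to 99.1% of the sum in wild type and 91.7% to 93.0% in knockout. Acot3 went from 26.3 ± 3.53% (SD, n = 3) of the sum to 4.54 ± 1.16%, and Acot4 from 36.7 ± 5.08% to 26.9 ± 1.81%. Acot12 held 35.8 ± 2.01% in wild type and 60.7 ± 3.23% in knockout, although its own level was lower. Acot9 took 0.240% of the sum in wild type and 4.52% in knockout, close there to Acot3.

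In wild type the levels of Acot4, Acot12 and Acot3, in that order by mean, overlapped between neighbours. In knockout the order was Acot12, Acot4 and Acot3, and the ranges of Acot12 and Acot4 were separate, as were those of Acot4 and Acot3. Acot3 and Acot9 overlapped there. The ratio of Acot4 to Acot3 within a library was 1.31, 1.10 and 1.87 in wild type and 6.65, 4.69 and 7.06 in knockout. The ratio of Acot12 to Acot4 was 0.937, 1.21 and 0.839 in wild type and 2.59, 2.12 and 2.09 in knockout. Both ratios were higher in every knockout library, and neither depends on how a library is scaled. With levels taken relative to the FPKM outside mitochondrial transcripts, the wild type to knockout ratio was 23.3 for Acot3, 5.73 for Acot4 and 2.42 for Acot12.

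**Figure D3:**
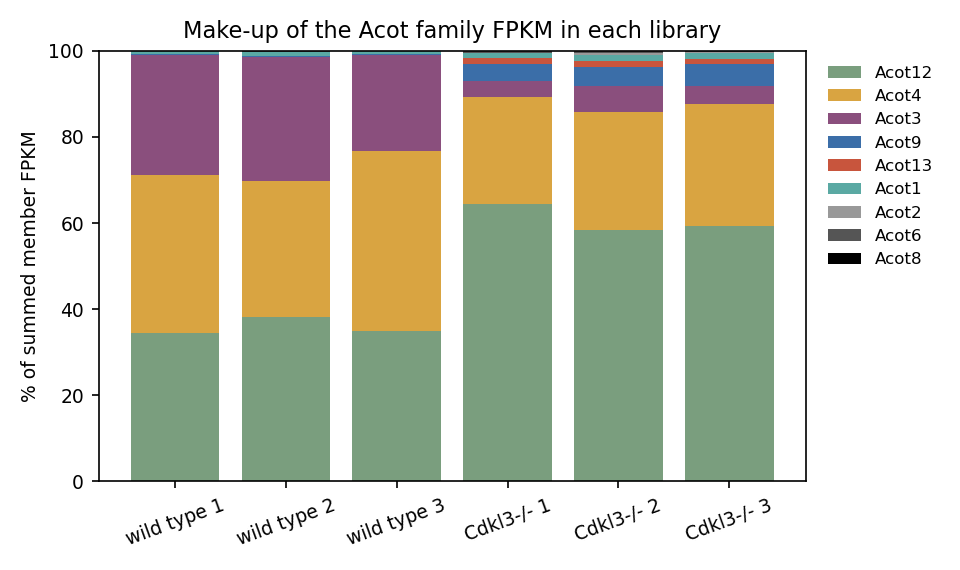
Share of the summed FPKM of the Acot members (percent, stacked bars starting at 0) in each of the 6 libraries. Acot12 averages 35.8% in wild type and 60.7% in knockout, and Acot3 26.3% and 4.54%.

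Acot1 to Acot6 form an array of 6 genes within 123.49 kb of chromosome 12 (GRCm38, GENCODE M21), all on the + strand. From the proximal side the order is Acot2 (chr12:83987861-83993873), Acot1 (chr12:84009490-84018371), Acot4 (chr12:84038379-84048601), Acot3 (chr12:84052144-84060402), Acot5 (chr12:84069325-84076020) and Acot6 (chr12:84100654-84111349). The 2 genes that were abundant and much lower in knockout are next to each other in the middle, and the measured genes at both ends, Acot2 and Acot6, were under 1 FPKM with overlapping groups. The other members lie elsewhere, Acot8 at chr2:164792765-164804882 (- strand), Acot9 at chrX:155262443-155297654 (+ strand), Acot12 at chr13:91741512-91786148 (+ strand) and Acot13 at chr13:24817948-24831540 (- strand). Of the genes flanking the array, Numb, an inhibitor of Notch signalling, alone passed the filter. Numb measured 7.04, 5.65 and 5.99 FPKM in wild type and 6.04, 7.53 and 6.71 FPKM in knockout, with overlapping groups and a log2 difference of 0.10 (SE 0.16, adjusted p = 0.62). On the other side, all 4 flanking genes measured were too low for the filter. Dnal1 was at 0.324 to 0.488 FPKM and Ptgr2 at 0.313 to 0.776 FPKM over all libraries, with overlapping groups. Zfp410, at 0.533, 0.241 and 0.317 FPKM in wild type and 0.863, 1.13 and 0.991 FPKM in knockout, and Fam161b, at 0.0945 to 0.149 and 0.201 to 0.418 FPKM, were higher in every knockout library.

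The antisense gene 4732463B04Rik overlaps exons of both Acot3 and Acot4. Together with Gm49366, not analysed here, its exons cover 20.6% of the exon length of Acot3 and 9.71% of that of Acot4. It measured 9.22, 3.63 and 6.08 FPKM in wild type and 1.00, 1.53 and 1.31 FPKM in knockout, so it too was lower in every knockout library, with a log2 difference of -1.61 (SE 0.28). Whether counting used the strand is not given in the sources used here, so reads of the antisense gene and of Acot3 or Acot4 in the shared bases cannot be told apart.

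**Figure D4:**
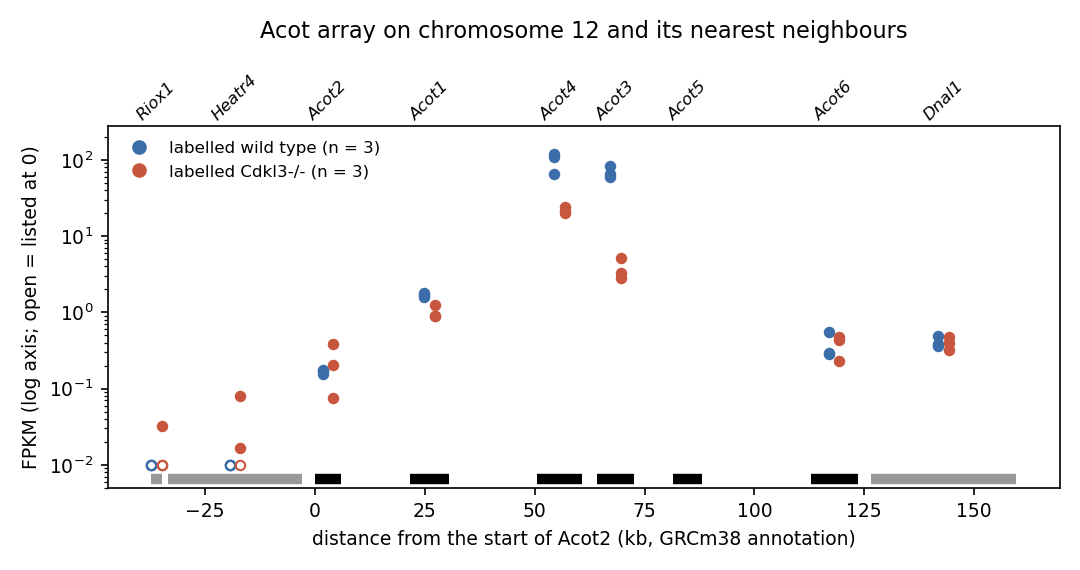
FPKM (log axis) of the 6-gene array and its nearest flanking genes along the chromosome, with a point per library. Open points near the axis floor are values listed at 0. Acot4 stands above the flanking genes drawn, Riox1, Heatr4 and Dnal1, in all 6 libraries. The groups are separate for Acot1, Acot3 and Acot4 and overlap for Acot2, Acot6 and Dnal1.

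How well reads can be assigned differs within the array. Acot1 and Acot2 shared 95.2% of their coding bases, and 12.4% of the 100-base stretches of Acot1 exons and 17.1% of those of Acot2 occurred unchanged in another gene of the family, so their values are uncertain. Acot3 was 83.9% identical to Acot1 and 85.8% to Acot5, and 4.27% of its stretches were shared. Acot4 was at most 76.6% identical to the others, with 0.336% of its stretches shared. Acot8, Acot12 and Acot13 shared none.

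The genes closest to each member in pattern were found as the mean absolute difference of log2(FPKM + 1), each gene centred on its own mean, over the 6 libraries. These 6 points share the labelled genotype, so the measure is a description. Closest to Acot3 were Cyp2a22, a cytochrome P450 (0.18), Slc22a27, an organic anion transporter (0.28), and Lepr, the leptin receptor (0.32). Cyp2a22 measured 13.9, 10.96 and 13.9 FPKM in wild type and 0.0710, 0.367 and 0.0652 FPKM in knockout. As for Acot3, replicate 2 was the lowest of the wild type libraries and the highest of the knockout libraries. Closest to Acot4 were the transporter Slc22a29 (0.14), Acss3, a mitochondrial acyl-CoA synthetase (0.15), and Gm45819 (0.18). For Acot12 they were Ak3, a mitochondrial GTP:AMP phosphotransferase (0.066), Phka2, a subunit of phosphorylase kinase (0.076), and Dnajc22 (0.078), for Acot1 Zc4h2 (0.037), Mkrn1 (0.051) and Phldb2 (0.053), and for Acot9 Dnajc15 (0.046), Mlec (0.054) and Vps26b (0.056). None of these gene names was shared between members. Cyp2a22, Slc22a29, Acss3, Gm45819 and Mkrn1 were under 1 FPKM in every knockout library. Dnajc15, Mlec and Vps26b were under 1 FPKM in every wild type library. These genes passed the filter through the other group alone and had to differ. A small distance is not a like ratio at low FPKM. Slc22a29 averaged 5.64 FPKM in wild type and 0.284 FPKM in knockout, and Acot4 98.5 and 21.9 FPKM.

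Around the family, 6 lists of acyl-CoA genes held 110 distinct genes, of which 60 were tested, 26 called higher, 12 called lower and 22 not called. Their median log2 difference was 0.58, beside 0.12 for all genes tested, of which 33.7% were called higher and 20.5% lower. Of the 60, 7 passed the filter through the knockout libraries alone and 1 through the wild type libraries alone. These 8 had to differ. Over the other 52, counted after the values were seen, 19 (36.5%) were called higher and 11 (21.2%) lower, with a median of 0.09. Among all genes tested, 4894 reached 1 FPKM in some library of each group. Of those, 26.5% were called higher and 21.2% lower, with a median of 0.02. For the genes that had to differ, levels are given below without a test. Of the other thioesterases, 3 of 6 with a row were tested and 1 was called. Baat, the hepatocyte enzyme that conjugates bile acids and also hydrolyses acyl-CoA, measured 55.2, 35.4 and 40.7 FPKM in wild type and 75.1, 155 and 109.6 FPKM in knockout and rose by 1.31 (SE 0.29, adjusted p = 0.0058). Them4 (0.66, SE 0.25, adjusted p = 0.055) and the lysosomal Ppt1 (-0.12, SE 0.19, adjusted p = 0.60) were not called. Acot10, Acot11 and Ppt2 were at or near 0 FPKM.

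Acyl-CoA synthetases run the opposite reaction, and 5 of 9 tested were called higher, 1 lower and 3 not, with a median of 0.83. Over all genes tested, 33.7% were called higher and 20.5% lower. Of the synthetases called, 1 higher and the 1 lower had to differ. Acsl5, a long-chain synthetase, rose by 2.16 (SE 0.31, adjusted p = 0.00090). Of its wild type libraries, only replicate 1, at 1.18 FPKM, reached 1 FPKM. Acsm5, a medium-chain synthetase, rose by 1.31 (SE 0.21, adjusted p = 0.0015). Acsf2 was at 0.222 to 0.485 FPKM in wild type and 1.48 to 1.77 FPKM in knockout, and Acss3 at 3.56 to 5.77 and 0.385 to 0.821 FPKM.

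Peroxisomal fatty acid oxidation yields substrates of Acot3, Acot4 and Acot8. It had 13 genes tested, with 3 called higher, 2 lower and 8 not, and a median of -0.04. The shares over all genes tested were 33.7% higher and 20.5% lower. Abcd2, the peroxisomal importer of very long-chain acyl-CoA, measured 56.7, 49.1 and 69.3 FPKM in wild type and 11.4, 16.3 and 6.92 FPKM in knockout and fell by 2.30 (SE 0.29, adjusted p = 0.00051). Its lowest wild type library stood above its highest knockout library. Of the 3 called higher, 2 had to differ. These were Decr2, at 0.203 to 0.356 FPKM in wild type and 2.47 to 6.72 FPKM in knockout, and Amacr, the racemase of branched acyl-CoA, at 0.221 to 0.660 and 1.52 to 2.99 FPKM. Slc25a17, a peroxisomal cofactor carrier, rose by 0.94 (SE 0.25, adjusted p = 0.013), a call lost at 0.60 after removal of the GC content and exon length trends.

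In mitochondrial fatty acid oxidation, 8 of 14 genes tested were called higher, 3 lower and 3 not, with a median of 1.09. Beside this, 33.7% of all genes tested were called higher and 20.5% lower. Without the 3 that passed through the knockout libraries alone, 5 of 11 (45.5%) were called higher and 3 (27.3%) lower. Their median was 0.09. Over all genes that reached 1 FPKM in some library of each group, the shares were 26.5% and 21.2%. Etfdh, which passes electrons of acyl-CoA dehydrogenases to ubiquinone, rose by 2.74 (SE 0.25, adjusted p = 0.00016). Cpt2, the inner carnitine palmitoyltransferase and 1 of these 3, was at 0.163 to 0.476 FPKM in wild type and 3.44 to 5.90 FPKM in knockout. Hadhb of the trifunctional protein rose by 1.68 (SE 0.20, adjusted p = 0.00043), and the ketone body enzyme Bdh1 fell by 1.498 (SE 0.20, adjusted p = 0.00060).

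Of PPAR alpha and its targets outside the family, 19 were tested, with 6 called higher, 6 lower and 7 not, and a median of 0.05. That is 31.6% in each direction, beside 33.7% higher and 20.5% lower over all genes tested, and nothing is read from the split. The omega-hydroxylases Cyp4a14 and Cyp4a10 fell by 3.77 (SE 0.48, adjusted p = 0.00063) and by 3.13 (SE 0.43, adjusted p = 0.00073), and the pantetheinase Vnn1 fell by 2.43 (SE 0.27, adjusted p = 0.00033). The fatty acid binding protein Fabp1 rose by 3.14 (SE 0.28, adjusted p = 0.00014). Ehhadh and Ppara were outside the rule for named genes and chosen after their values were seen. Ehhadh, the peroxisomal bifunctional enzyme, fell by 1.69 (SE 0.46, adjusted p = 0.016). Ppara itself rose by 0.84 (SE 0.27, adjusted p = 0.029). Its level went from a low 0.628 ± 0.632 FPKM to 1.82 ± 0.562 FPKM (SD, n = 3). Of its wild type libraries, only replicate 1, at 1.35 FPKM, reached 1 FPKM.

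Coenzyme A supply and breakdown had 9 genes tested, with 5 called higher, 3 lower and 1 not, and a median of 0.79. Over all genes tested, the shares were 33.7% higher and 20.5% lower. Without Ppcs, which had to differ, the median was 0.25. Nudt7, a peroxisomal hydrolase of coenzyme A and acyl-CoA, measured 1.03, 0.692 and 0.713 FPKM in wild type and 81.1, 71.4 and 31.3 FPKM in knockout and rose by 4.996 (SE 0.33, adjusted p = 6.5e-05). Only replicate 1 of the wild type libraries reached 1 FPKM of Nudt7. Nudt19, which cleaves coenzyme A as well, rose by 3.16 (SE 0.38, adjusted p = 0.00050). Ppcs, of coenzyme A synthesis, was at 0.122 to 0.311 FPKM in wild type and 3.96 to 6.35 FPKM in knockout. Vnn1, in this list too, is the fall given above.

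**Figure D5:**
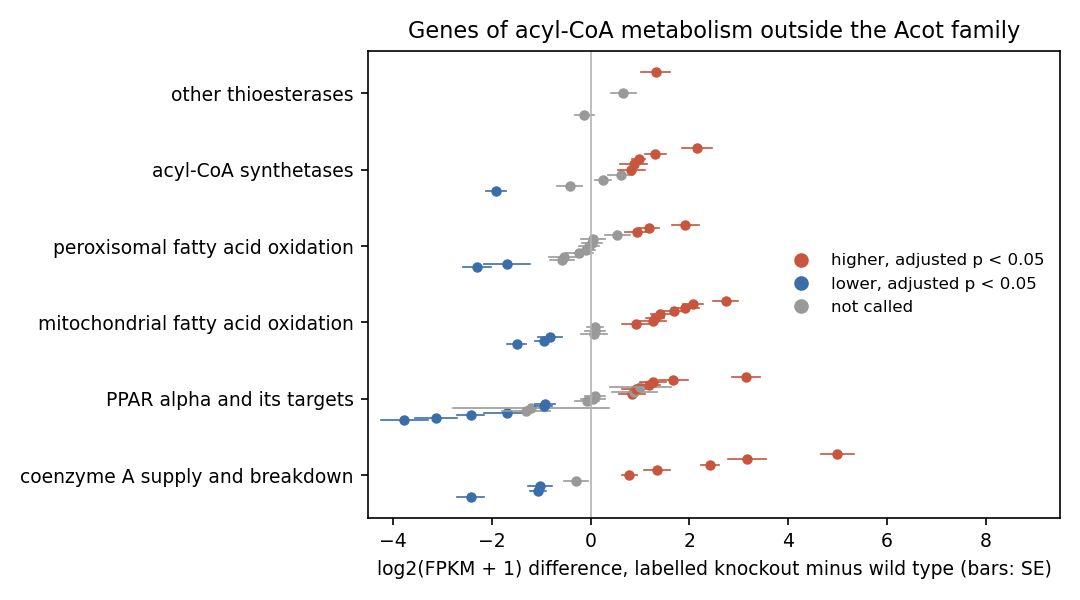
Log2(FPKM + 1) difference, knockout minus wild type (bars are SE), of each tested gene in the 6 lists around the Acot family, coloured by whether it was called higher, called lower or not called. Called genes, those that had to differ included, lie on both sides in 5 of the lists. In the acyl-CoA synthetases the only lower call, Acss3, had to differ. The targets of PPAR alpha have 6 called in each direction (31.6%), beside 33.7% higher and 20.5% lower over all genes tested.

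Several measures moved with the labelled groups beside these results, and their part in them was not tested. Stellate cell markers summed to 76.1 to 129.7 FPKM in wild type and 21.3 to 32.2 FPKM in knockout, with 3 of 3 tested called lower, while Col1a1, too low to be tested, went from 0.0260 to 0.0520 FPKM by group mean. Endothelial markers summed to 9.97 to 11.3 FPKM and 5.47 to 5.90 FPKM, with 3 of 3 tested called lower. Over all genes tested, 20.5% were called lower. The 3 endothelial markers too low to be tested had higher group means in knockout, with Stab2 at 0.0469 and 0.0831, Pecam1 at 0 and 0.0837 and Clec4g at 0.199 and 0.545 FPKM. In bulk tissue, fewer cells of a type and less RNA per cell cannot be told apart. The direction of genes moved with GC content: among tested genes with 45% to 50% GC, where Acot1, Acot3, Acot4 and Acot9 lie, 44.8% were called higher and 13.02% lower, and at 40% to 45%, where Acot12 lies, 25.2% and 22.4%. When trends on GC content and exon length were removed from every library, the log2 difference was -4.45 for Acot3, -2.28 for Acot4, -1.15 for Acot12 and 1.06 for Acot9. Without knockout replicate 1, the library with Kap, it was -3.84 for Acot3, -2.07 for Acot4 and -1.0005 for Acot12. In that fit the lists had 16 genes called higher and 14 lower, beside 26 and 12 with every library. Over all genes, 1245 were called higher and 1040 lower in that fit, beside 1907 and 1158 with every library. No share of the genes tested is given for that fit, so nothing is read from the list counts.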

How the data were processed

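Whole-liver RNA-seq of 6 libraries was used, 3 labelled wild type and 3 labelled Cdkl3-/-. Per the submitters' processing notes, HISAT2 and GRCm39 were used; which counting tool and annotation is not stated there. The authors deposited 1 table per library with FPKM per gene, per the file headers. The header code of knockout replicate 3 differs from its title, and its label was used.

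Symbols were used, not identifiers. FPKM times the exon length of the symbol's gene (GENCODE M21, GRCm38, 22033 matches) gave whole multiples of a step for 98.7% to 99.0% of low values per library (up to 40 reads, tolerance 0.15), which gave reads and depth. This did not hold for a block of 1787 chromosome 1 rows, left out with 127 rows without a symbol and 227 sharing one. Log2(FPKM + 1), which understates changes of low genes, was fitted with limma 3.58.1 (R 4.3.3, trend, robust, genotype only), with Benjamini-Hochberg adjustment over the 5651 genes that reached 1 FPKM in 3 or more libraries. Members under the filter came from a fit without it. The fit was tested on simulated data. Shares, ratios, sequences and figures used Python 3.11.15.

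The members, lists, motifs and tests were chosen with earlier results of these data known. Named genes were all members, the other thioesterases with a row, up to 4 called genes per list with the smallest adjusted p and no overlap, and the 3 nearest genes in pattern to each tested member. Alternatives were another pseudocount (0.1), no filter or one at 10 FPKM, no robust moderation, median centring, quantile normalization, a replicate block, removal of GC and length trends (possible for 98.0% of tested genes), and leaving out each library. Intervals on read ratios cover counting error only.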

Additional observations from a re-analysis of the deposited data

How the results depend on the processing

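Acot3, Acot4 and Acot12 kept their direction and their call under all 14 alternatives, at -4.45 to -3.76, -2.35 to -1.90 and -1.19 to -0.79. The members were chosen by this contrast, so nothing is read from whether a member's call was kept or lost. Acot9 was at 1.06 to 2.38 under the 10 alternatives that tested it, which says nothing about stability, since it passed the filter through the knockout libraries alone. It was not tested under the 10 FPKM filter or without any 1 knockout library, since too few libraries then pass. Acot1 ranged from -0.86 to -0.37 and was called in 5 of 13, and not without the filter, with the replicate block (adjusted p = 0.073, limma) or without any 1 library. Members called higher numbered 1, with 2 without a filter, 0 under the 10 FPKM filter, 0 among genes that reached 1 FPKM in some library of each group (a choice made after seeing the data) and 0 to 1 when each library was left out. Members called lower numbered 4, with 3 in every fit that left out a library and 3 with the replicate block. Over all genes, 1907 were called higher, with 3193 without a filter and 468 under the 10 FPKM filter, where fewer genes are tested, and 964 to 1951 when each library was left out. The 1158 called lower became 559 under that filter, 1889 with median centring (a shift of -0.28), 1760 with quantile normalization and 727 to 1040 when each library was left out. List genes called higher numbered 26, with 10 under the 10 FPKM filter and 15 to 28 when each library was left out, and those called lower 12, with 9 to 14. Without a filter, 20.9% of 20354 genes were called in either direction. For the 10 FPKM filter and the fits that left out a library, the number of genes tested differs and no share is given. Nothing is therefore read from the member and list counts under the alternatives. Ppt1, not called in any fit, ran from -0.25 to 0.020 when each library was left out, the latter without knockout replicate 3. The cause was not tested. The same-numbered libraries deviated with r of -0.05, -0.10 and 0.18 across genes, and differently numbered ones with r from -0.35 to 0.35. Whether libraries with the same number shared any handling was not tested. With only members under 80% identical in coding sequence to another (used because no protein table was given), Acot4 held 50.2% and Acot12 49.3% of the summed FPKM in wild type, Acot9 0.329%, and Acot12 64.6% in knockout. Depth limits Acot2, Acot8 and Acot13, which had 36 reads or fewer in every library.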

Other observations

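Pdk4, a target of PPAR alpha that inhibits pyruvate dehydrogenase, did not follow the Acot genes and split both groups. It measured 3.49, 54.2 and 52.5 FPKM in wild type replicates 1 to 3 and 4.54, 2.26 and 59.6 FPKM in knockout replicates 1 to 3. Wild type replicate 1, low for Pdk4, had 83.6 FPKM of Acot3, and knockout replicate 3, high for Pdk4, had 2.81 FPKM of Acot3. The gene was picked after its values were seen.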
